A study of Mus musculus with 4 samples.

Results

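Dividing nuclei were described in mouse brain after photothrombotic (PT) injury, a focal ischaemic lesion of cortex induced by illuminating a photosensitive dye in the blood, at 21 days post-injury (dpi). A nucleus was taken as dividing when it held at least 757 gene UMIs (unique molecular identifiers, each standing for a captured transcript) and at least 5 summed UMIs from at least 3 of 6 genes, Top2a, Mki67, Kif11, Cenpf, Aspm and Knl1. This rule found 136 dividing nuclei among 17029 lesional barcodes, 43 of the library labelled control, and 93 of the one labelled Cxcl12-cKO. Of these barcodes 8321 and 8169 reached the UMI minimum (control and Cxcl12-cKO). Most of the dividing nuclei carried the genes of fibroblasts or of myeloid cells (microglia and macrophages), and a few those of oligodendrocyte precursor cells (OPCs). The control library came from mice labelled WT. The other came from Col1a2(creER); Cxcl12(flox) mice, which carry a tamoxifen-inducible Cre recombinase driven by Col1a2, a collagen gene of fibroblasts, and a floxed Cxcl12, the gene of a chemokine. Both groups had the PT injury. The study gives a range in weeks, within young adulthood, for its mice in general, and no source used here gives the ages of these ones. Each library pooled the nuclei of a female and a male mouse (1 of each), with lesional and parenchymal nuclei tagged and mixed at 75% and 25%. There was 1 library per genotype, so no comparison between them has a replicate. The intervals given are exact 95% intervals that cover counting error only, and mouse, library and genotype cannot be told apart.

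A cell that divides copies its DNA in S phase, condenses and separates the copies in mitosis, and pinches apart in cytokinesis. In the adult brain neurons do not divide, OPCs keep dividing slowly, and fibroblasts and myeloid cells can enter the cycle after injury. The 6 genes of the rule act late in the cycle. Top2a untangles replicated DNA, Mki67 coats mitotic chromosomes and is the common marker of proliferation, and Kif11 is the motor that pushes the spindle poles apart. Cenpf and Knl1 are kinetochore proteins that tie chromosomes to the spindle, and Aspm sits at the spindle poles. The identifiers in the files were ENSMUSG00000020914 (Top2a), ENSMUSG00000031004 (Mki67), ENSMUSG00000012443 (Kif11), ENSMUSG00000026605 (Cenpf), ENSMUSG00000033952 (Aspm) and ENSMUSG00000027326 (Knl1).

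Genes that act in mitosis are known to share short promoter elements, the CCAAT box, read by NF-Y, and the cell cycle genes homology region (CHR, written TTTGAA or TTCGAA), read by complexes that hold the genes silent until late in the cycle. Genes of S phase more often carry E2F sites, searched here as TTTGGCGC and TTTCGCGC. The promoters of 4 of the rule genes and of Diaph3, which organises actin in cytokinesis and was the cytokinesis gene with the most UMIs in dividing nuclei, are printed to show these elements in the genes that marked the nuclei. Each runs for 300 bases around the start of the gene in the RefSeq table of build GRCm38.p6 (the counts were made on GRCm39), 5′ to 3′ on the gene's strand. Capitals mark matches on either strand to the CCAAT box, a CHR form or an E2F form, and no matches overlapped. Top2a (chr11:99024140-99024439, minus strand) held 6 CCAAT, 2 TTTGAA and 2 TTCGAA matches. Mki67 (chr7:135716330-135716629, minus strand) held 3 CCAAT and 2 TTTGAA matches, and Cenpf (chr1:189688037-189688336, minus strand) held 2 and 1. Kif11 (chr19:37376132-37376431, plus strand) held 1 of each. Diaph3 (chr14:87141175-87141474, minus strand) held 3 CCAAT matches and no CHR match.
Top2a: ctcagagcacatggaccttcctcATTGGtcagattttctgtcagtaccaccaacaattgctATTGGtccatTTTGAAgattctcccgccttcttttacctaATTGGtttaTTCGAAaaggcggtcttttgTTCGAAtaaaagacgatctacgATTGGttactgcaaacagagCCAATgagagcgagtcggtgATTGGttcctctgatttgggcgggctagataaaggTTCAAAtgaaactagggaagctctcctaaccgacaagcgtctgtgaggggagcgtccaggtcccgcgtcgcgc
Mki67: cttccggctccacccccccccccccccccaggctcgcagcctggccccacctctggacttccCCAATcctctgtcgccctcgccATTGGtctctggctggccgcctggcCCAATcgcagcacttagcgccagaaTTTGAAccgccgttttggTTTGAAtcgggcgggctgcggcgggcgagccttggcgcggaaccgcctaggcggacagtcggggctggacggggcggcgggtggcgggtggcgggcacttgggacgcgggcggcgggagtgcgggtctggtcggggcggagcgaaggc
Cenpf: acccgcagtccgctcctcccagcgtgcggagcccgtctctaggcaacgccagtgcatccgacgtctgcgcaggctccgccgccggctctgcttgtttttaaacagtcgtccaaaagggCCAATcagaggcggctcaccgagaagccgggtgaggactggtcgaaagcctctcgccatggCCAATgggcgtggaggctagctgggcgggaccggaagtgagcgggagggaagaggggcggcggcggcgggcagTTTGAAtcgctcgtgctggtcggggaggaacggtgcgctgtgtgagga
Kif11: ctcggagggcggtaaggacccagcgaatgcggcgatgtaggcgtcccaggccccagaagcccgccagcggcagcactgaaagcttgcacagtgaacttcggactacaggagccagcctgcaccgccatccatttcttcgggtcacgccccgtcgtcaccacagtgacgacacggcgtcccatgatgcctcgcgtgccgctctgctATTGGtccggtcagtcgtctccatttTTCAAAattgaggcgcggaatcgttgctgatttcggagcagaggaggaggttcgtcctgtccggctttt
Diaph3: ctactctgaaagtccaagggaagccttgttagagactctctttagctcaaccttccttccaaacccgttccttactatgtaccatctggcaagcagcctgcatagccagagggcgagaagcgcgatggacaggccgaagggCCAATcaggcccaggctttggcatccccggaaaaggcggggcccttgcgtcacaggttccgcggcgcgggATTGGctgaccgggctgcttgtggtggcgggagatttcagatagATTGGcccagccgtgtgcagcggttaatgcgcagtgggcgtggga

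All 6 rule genes had a promoter in the table. CCAAT was found in 5 of them, TTTGAA in 6, TTCGAA in 1 and neither E2F form in any. Among all 32851 promoters of the table, CCAAT was found in 37.4%, TTTGAA in 17.9%, TTCGAA in 1.56%, TTTGGCGC in 0.514% and TTTCGCGC in 0.323%. The mitotic genes among the lists used below had 45 promoters for 40 of 49 genes, of which 64.4% held TTTGAA or TTCGAA, against 19.2% of all promoters. CCAAT was found in 62.2% of the mitotic promoters and an E2F form in 4.44%. The S phase genes differed in both elements: of their 31 promoters, from 27 of 32 genes, 19.4% held a CHR form and 32.3% an E2F form, against 0.813% of all promoters for E2F. These shares describe letters in a window and were not set against any binding data.

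The lesional part of the libraries held 8321 and 8169 nuclei over the UMI minimum (control and Cxcl12-cKO), with median depths of 2941 and 2923 UMIs, and parenchymal nuclei over the minimum were deeper, at 17068 and 17925. The lesion matrices shared 22 cell barcodes between libraries, none of them a dividing nucleus. UMIs of both Xist and Y-linked genes, which a droplet with nuclei of both mice would hold, were found in 9.66% and 11.2% of lesional nuclei. Cxcl12, the targeted gene, was not lower in the library labelled Cxcl12-cKO. Over nuclei that were not dividing it stood at 59.4 CPM (a count scaled to 1000000 gene UMIs of the same nuclei) in the control and 125 CPM in Cxcl12-cKO. In dividing fibroblast-like nuclei it had 7 UMIs in 4 nuclei (89.6 CPM) in the control and 64 UMIs in 20 nuclei (340 CPM) in Cxcl12-cKO. No source used here says which exons were floxed, so 3′ counts cannot check the deletion, and the names of the libraries are used as labels only. The receptor Cxcr4 had 2 and 5 UMIs in dividing myeloid-like nuclei, too few for a comparison.

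The nuclei were chosen by the UMIs of the 6 rule genes, so the levels of these genes, and of every gene compared between dividing and other nuclei, are given as a description with no test. Top2a had 151 UMIs in 40 of the control dividing nuclei (631 CPM, against 2.21 CPM in all other lesional nuclei) and 393 UMIs in 88 of the Cxcl12-cKO dividing nuclei (813 against 3.13 CPM). Mki67 was at 410 and 627 CPM (1.60 and 2.52 CPM in other nuclei), Knl1 at 464 and 499 CPM, Kif11 at 426 and 468 CPM, Cenpf at 351 and 343 CPM, and Aspm at 196 and 197 CPM. The control sums include nuclei of 21172 and 22521 UMIs that held 10 and 6 of its 593 rule UMIs. Their part in the control CPM was not tested. Per dividing nucleus, the 6 genes together ran from 266 to 8077 CPM with a median of 2841 in the control, and from 724 to 11801 CPM with a median of 2829 in Cxcl12-cKO. The libraries therefore overlapped almost over their whole range. All 6 genes were seen at once in 13 and 23 dividing nuclei, and just 3 of them in 3 and 21.

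Mitotic genes outside the rule, with 49 genes in 4 lists, showed how nuclei near the threshold compared. Dividing nuclei with 5 or 6 UMIs of the rule genes, 6 in the control and 16 in Cxcl12-cKO, had 3248 and 6868 CPM of these other mitotic genes, whereas nuclei with 7 or more UMIs (37 and 77) had 9639 and 10384 CPM. Among the 6 control nuclei, with a median of 4297 UMIs, 1 mixed nucleus had 22521 UMIs, 24 of them mitotic. Its part in the control value of 3248 CPM was not tested. Just outside, nuclei with 3 or 4 UMIs (14 and 14) had 1837 and 3258 CPM. Nuclei with 1 or 2 UMIs (231 and 302) had 330 and 335 CPM, and nuclei with none 207 and 210 CPM. The rule thus leaves out nuclei that carried other mitotic transcripts, and 1 and 5 nuclei reached 5 UMIs on fewer than 3 genes.

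Dividing nuclei were rare in the parenchyma, with 2 of 3228 nuclei in the control (0.0620%) and 0 of 3187 in Cxcl12-cKO, which allows a share of up to 0.0941%. Both control nuclei were neuron-like by their markers and very deep, with 50807 and 42953 UMIs. The rule genes made up 98.4 and 256 CPM of them, below the lowest dividing nucleus of either lesion. At least 1 UMI of the rule genes was more common in the parenchyma (11.5% and 11.9% of nuclei) than in the lesion (3.47% and 5.07%). A lone UMI of these genes was thus more frequent in the deeper parenchymal nuclei, whereas nuclei that met the rule were more frequent in the lesion. The parenchyma was mostly neuron-like, with 2723 of 3228 nuclei in the control and 2648 of 3187 in Cxcl12-cKO. It held 50 and 48 fibroblast-like, 27 and 41 myeloid-like and 26 and 20 OPC-like nuclei. None of these met the rule, which for 0 of 27 myeloid-like nuclei allows a share of up to 11.1%. The regions were thus not compared at a like mix of classes.

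The lineage of each dividing nucleus was read from 12 panels of 8 marker genes, none of them a cell cycle gene, and a class name is given as "-like". In the control, 17 of 43 dividing nuclei were fibroblast-like (39.5%, 25.0 to 55.6%), 12 myeloid-like (27.9%, 15.3 to 43.7%), 3 OPC-like (6.98%) and 8 mixed (18.6%), a mixed nucleus being one in which a second panel also passed. A panel counted only with UMIs from at least 2 of its genes. In Cxcl12-cKO, 34 of 93 were fibroblast-like (36.6%, 26.8 to 47.2%), 34 myeloid-like (the same share), 5 OPC-like (5.38%) and 14 mixed (15.1%). Among all lesional nuclei, fibroblast-like nuclei made up 56.8% and 54.2%, myeloid-like nuclei 16.7% and 21.3%, and OPC-like nuclei 1.68% and 1.77%. The lesion's fibroblast share lay above these intervals in both libraries, and its myeloid share lay below the interval in Cxcl12-cKO and inside it in the control. By other definitions of the classes the shares moved by more than 1.5 times: fibroblast-like nuclei were 20.9% of the control's dividing nuclei when panels were read relative to their share in the lesion, and myeloid-like nuclei 6.98% and 6.45% when single markers replaced the panels. In 4 of the 12 control and 1 of the 34 Cxcl12-cKO myeloid-like dividing nuclei the oligodendrocyte panel held more UMIs than the myeloid one (5 to 13 against 3 to 7, and 18 against 10), all from 1 gene. In 1 astrocyte-like nucleus of Cxcl12-cKO the OPC panel did (15 against 14). Where 1 gene sufficed, a definition chosen after these nuclei were seen, 7 of 43 (16.3%) and 28 of 93 (30.1%) dividing nuclei were myeloid-like. The most common mixed pair was fibroblast with myeloid, in 2 and 7 nuclei. The next was myeloid with oligodendrocyte, in 1 and 5.

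**Figure D1:**
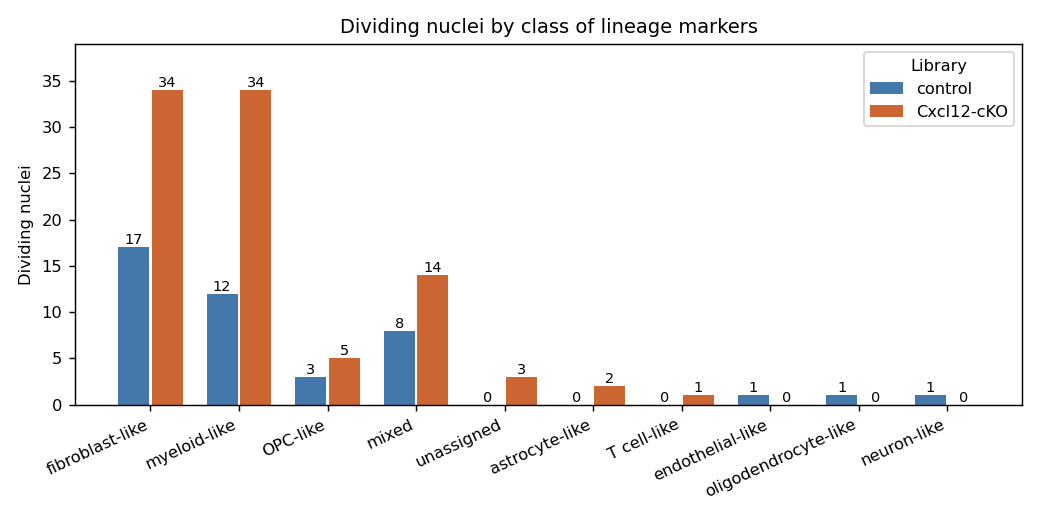
Number of dividing nuclei (y axis, bars with their counts) in each class read from marker panels (x axis), for the control and the Cxcl12-cKO lesion library (1 library each). Fibroblast-like and myeloid-like nuclei make up 29 of 43 dividing nuclei in the control and 68 of 93 in Cxcl12-cKO.

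The other classes held few nuclei. A T cell-like dividing nucleus was found only in Cxcl12-cKO, 1 of 88 T cell-like nuclei, with 20 UMIs of the T cell panel in 2857 UMIs, against 0 of 90 in the control. An endothelial-like dividing nucleus was found only in the control, 1 of 103, with 43 UMIs of the endothelial panel, against 0 of 58. No order between the libraries can be read from counts of 0 and 1. The control also held 1 oligodendrocyte-like and 1 neuron-like dividing nucleus. The neuron-like nucleus had 21172 UMIs, 145 of them of the neuron panel and 54 of the OPC panel, and both it and the oligodendrocyte-like nucleus carried UMIs of both sexes. Cxcl12-cKO held 2 astrocyte-like dividing nuclei and 3 that passed no panel, at 963 to 1665 UMIs. A class rested on only 3 or 4 panel UMIs in 5 dividing nuclei of each library.

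Single markers gave a coarser view than the panels. Bnc2, a zinc finger protein of fibroblasts, was seen in 24 of 43 (55.8%) and 50 of 93 (53.8%) dividing nuclei, and Csf1r, the receptor on which myeloid cells depend for survival, in 7 (16.3%) and 20 (21.5%). Lhfpl3, a membrane protein of OPCs, was seen in 8 (18.6%) and 13 (14.0%), Cd247, a chain of the T cell receptor complex, in 2 and 1, and Flt1, a VEGF receptor of endothelium, in 1 and 6. Lesional neuron-like nuclei, which should lack most of these, had Bnc2 in 25.9% and 26.3%, Csf1r in 3.89% and 3.49%, Cd247 in 1.02% and 0.806% and Flt1 in 1.69% and 1.34%. Those neurons had median depths of 13636 and 10840 UMIs, against 4284 and 4584 in dividing nuclei. Bnc2 and Csf1r in dividing nuclei were above the level in these deeper neurons, whereas Cd247 and Flt1 rested on at most 6 nuclei. Lhfpl3 was found in 52.8% and 51.1% of neuron-like nuclei, more often than in dividing nuclei. Within their own class the markers were seen in 16 of 17 and 33 of 34 nuclei for Bnc2, 4 of 12 and 14 of 34 for Csf1r, and 3 of 3 and 5 of 5 for Lhfpl3.

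The level of each lineage's panel was set beside that of other nuclei of the class, as a description. The panels also set the classes, with a fixed minimum of 3 UMIs, so a deeper nucleus could enter a class at a lower CPM. Dividing myeloid-like nuclei were deeper by 1.79 and 1.87 times, and the part of this in the values below was not tested. The fibroblast panel stood at 10176 CPM in dividing against 10774 CPM in other fibroblast-like nuclei of the control, and at 9250 against 9632 CPM in Cxcl12-cKO. Among its genes Col3a1, a fibrillar collagen, was at 1242 against 776 CPM and 1981 against 797 CPM, and Col6a3, a microfibrillar collagen, at 538 against 208 CPM and 499 against 227 CPM. Dcn, a matrix proteoglycan, was at 410 against 516 CPM and 218 against 499 CPM. Col3a1 and Col6a3 were thus above the levels in other fibroblast-like nuclei and Dcn below, with Bnc2 at 3494 against 4094 CPM and 2512 against 3762 CPM. Of the panel's 8 genes, 2 were higher and 2 lower beyond counting error in the control, and 5 and 3 in Cxcl12-cKO. Only 2 were higher in both libraries, so collagens as a group are not described by these values. The myeloid panel was lower in dividing nuclei, at 2721 against 4872 CPM and 2905 against 4434 CPM. Csf1r was at 197 against 463 CPM and 126 against 325 CPM. Adgre1, the F4/80 antigen of macrophages, was close in both, at 335 against 339 CPM and 296 against 313 CPM. The OPC panel was at 15758 against 14761 CPM and 21807 against 17838 CPM, on 3 and 5 dividing nuclei.

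Dividing nuclei were deeper than the rest, with fold differences of 1.46 and 1.57 in median UMIs. Among fibroblast-like nuclei the medians were 4151 against 3070.5 UMIs in the control and 5110.5 against 3116 in Cxcl12-cKO. Among myeloid-like nuclei they were 3763 against 2105.5 and 4350.5 against 2322.5. The UMIs of each nucleus's own sample tag, which do not come from its genome, had medians of 6515 against 5190 and 6199 against 5253.5. UMIs of both sexes were found in 18.6% and 14.0% of dividing and 9.62% and 11.2% of other lesional nuclei. How far depth and droplets with more than 1 nucleus bear on the results was not tested beyond the alternatives given.

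Dividing nuclei took a larger share of the Cxcl12-cKO lesion than of the control lesion. They were 0.517% of lesional nuclei in the control (0.374 to 0.695%) and 1.14% in Cxcl12-cKO (0.920 to 1.39%), a log2 ratio of 1.14 (0.60 to 1.70) that the 6 rule genes set. The ratio was 1.24 without nuclei of both sexes, 1.18 without mixed nuclei and 1.04 when 3 UMIs from 2 of the genes sufficed (54 and 109 nuclei). With this looser rule and every nucleus thinned to 2000 UMIs it was 0.93, and 37 of 6080 and 69 of 5970 nuclei passed. The thinning left out 2241 and 2199 shallower nuclei, 4 and 12 of them dividing. When the mitotic lists replaced the 6 genes, 245 and 271 nuclei passed, and the log2 ratio was 0.17 (−0.08 to 0.43). Of those nuclei 116 and 65 were neuron-like, and 110 and 63 of these had no UMI of the rule genes. Within fibroblast-like nuclei the ratio of this choice was 0.42 (−0.16 to 0.99) and within myeloid-like nuclei 1.22 (0.51 to 1.97). With this choice the interval thus included 0 over all nuclei and in fibroblast-like nuclei, but not in myeloid-like nuclei. The ratio over all nuclei lay below the interval by the 6 genes (0.60 to 1.70), whereas the fibroblast-like ratio lay inside its own (0.21 to 2.03). Under other settings, given below, the myeloid-like interval included 0 as well.

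By class, the dividing share was 0.360% of 4727 fibroblast-like nuclei in the control and 0.768% of 4429 in Cxcl12-cKO, a log2 ratio of 1.09 (0.21 to 2.03). Among myeloid-like nuclei it was 0.865% of 1388 and 1.95% of 1740, a log2 ratio of 1.18 (0.19 to 2.26). Among OPC-like nuclei it was 2.14% of 140 and 3.45% of 145, with an interval that included 0 (0.69, −1.68 to 3.37). When the nuclei were thinned and the looser rule was used, the intervals of the fibroblast-like (0.69, −0.31 to 1.73) and myeloid-like ratios (1.02, −0.06 to 2.22) also included 0. With panels that 1 gene sufficed to fill, the myeloid-like ratio was 1.68 (0.45 to 3.12). OPC-like nuclei had the highest dividing share of the named classes in both libraries, on 3 and 5 nuclei. Neuron-like nuclei, which should not divide, had a share of 0.169% of 591 in the control and 0 of 372 in Cxcl12-cKO, which allows up to 0.806%. The interval of the control share in neurons reached 0.939%, above the control shares in fibroblast-like and myeloid-like nuclei. In Cxcl12-cKO the bound for neurons lay above the fibroblast-like share of 0.768% and below the myeloid-like share of 1.95% (1.36 to 2.72%). The larger set of parenchymal neuron-like nuclei, 2 dividing of 5371 over both libraries, had a share of 0.0372% with an upper limit of 0.134%, below the lower limits of the control fibroblast-like (0.210%) and myeloid-like (0.448%) shares. At least 1 UMI of the rule genes was found in 3.24% and 7.30% of myeloid-like nuclei (1.17, 0.67 to 1.69), 2.88% and 3.48% of fibroblast-like nuclei and 4.74% and 3.49% of neuron-like nuclei.

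**Figure D2:**
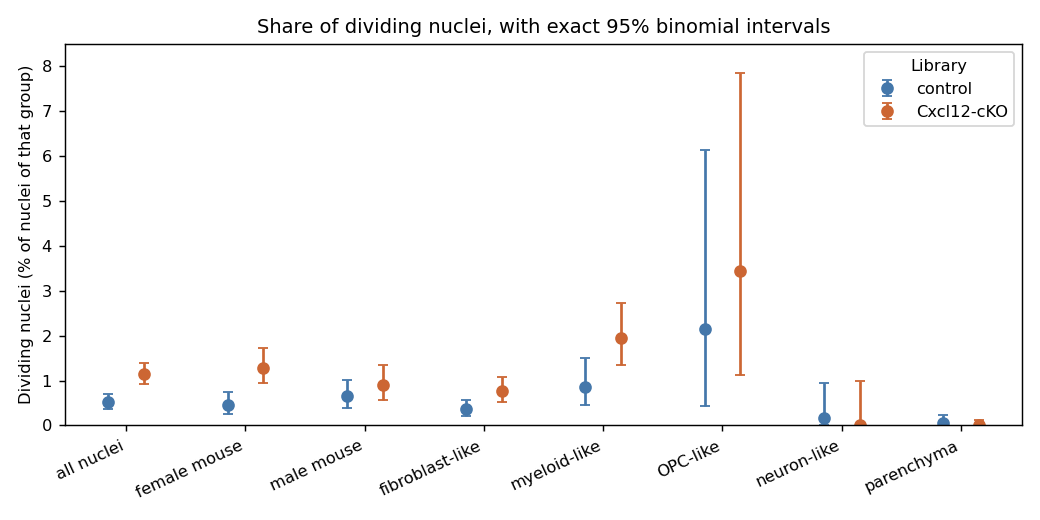
Share of lesional nuclei that were dividing (y axis, percent) over all nuclei, by mouse and by class, and share in the parenchyma, for the control and Cxcl12-cKO libraries, with exact 95% intervals of counting error as bars. The share was 0.360% and 0.768% in fibroblast-like, 0.865% and 1.95% in myeloid-like and 2.14% and 3.45% in OPC-like nuclei.

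The mice of a library could be told apart by Xist and Y-linked UMIs. In nuclei assigned to the female mouse the dividing share was 0.462% in the control (16 of 3460) and 1.29% in Cxcl12-cKO (44 of 3413), a log2 ratio of 1.48 (0.63 to 2.40). In those of the male mouse it was 0.646% (18 of 2786) and 0.901% (23 of 2554), a log2 ratio of 0.48 (−0.47 to 1.45). Both mice pointed the same way, but the interval of the male pair included 0. In myeloid-like nuclei the female pair gave 3 of 555 and 17 of 903 (1.80, 0.01 to 4.21) and the male pair 7 of 438 and 8 of 412 (0.28, −1.38 to 1.98). In fibroblast-like nuclei the female pair gave 8 of 1952 and 17 of 1550 (1.42, 0.13 to 2.84) and the male pair 7 of 1704 and 10 of 1691 (0.53, −1.02 to 2.16). Dividing nuclei with UMIs of both sexes numbered 8 of 804 and 13 of 919, and those with no such UMI 1 of 1271 and 13 of 1283. The difference between the pairs of mice was not tested.

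Genes of the cell cycle outside the rule were read in 12 lists ordered by role, with 159 genes. Cells that divide express them together with the rule genes, so their levels in dividing nuclei are a description. For DNA replication, the licensing and fork list stood at 1562 CPM in dividing against 161 CPM in other fibroblast-like nuclei of the control, and at 1402 against 154 CPM in Cxcl12-cKO. In myeloid-like nuclei it was 1775 against 250 CPM and 2364 against 312 CPM. Pola1, the catalytic subunit of DNA polymerase alpha, was over all classes at 476 against 64.7 CPM and 660 against 68.8 CPM. Clspn, which relays the checkpoint signal at stalled forks, was at 142 against 3.17 CPM and 203 against 4.98 CPM, and Lig1, which joins the fragments of the lagging strand, at 91.9 against 11.1 CPM and 114 against 11.9 CPM. Over all classes 19 of 25 members in the control and 24 in Cxcl12-cKO were higher in dividing nuclei beyond counting error. By the same criterion 7.29% and 10.4% of all genes with a UMI were higher.

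The genes that supply nucleotides were also higher in dividing nuclei. Rrm1, a subunit of ribonucleotide reductase, was at 75.2 against 7.16 CPM and 120 against 7.50 CPM, Tyms, which makes thymidylate, at 54.3 against 5.33 CPM and 86.9 against 5.13 CPM, and Tk1, the thymidine kinase of S phase, at 46.0 against 0.64 CPM and 74.5 against 1.08 CPM. The repair list held Rad51b (1053 against 194 CPM and 1128 against 285 CPM), Brip1 (209 against 3.67 CPM and 240 against 5.65 CPM) and Brca1 (159 against 2.21 CPM and 184 against 3.67 CPM), which act in homologous recombination and on stalled forks. Rad51b was thus also present in nuclei that did not divide, where Brip1 and Brca1 were rare. All 13 repair genes were higher in dividing fibroblast-like nuclei of both libraries, and 8 of 13 in dividing myeloid-like nuclei of both. Of all genes with a UMI in both libraries, 2.9% were higher in dividing fibroblast-like and 2.14% in dividing myeloid-like nuclei of both. The rule used this contrast, so these shares stand beside the member counts for all lists and nothing is read from them.

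Genes of chromatin and chromosome structure were next. Ezh2, the methyltransferase that sets H3K27 methylation, was at 418 against 59.4 CPM and 488 against 67.3 CPM, Hjurp, which places the centromeric histone, at 347 against 46.7 CPM and 432 against 53.6 CPM, and Atad2, a chromatin ATPase, at 343 against 28.6 CPM and 432 against 33.7 CPM. Of the condensin and cohesin genes, Smc4 was at 376 against 74.8 CPM and 503 against 83.0 CPM, Smc2 at 259 against 11.8 CPM and 265 against 14.2 CPM, and Ncapd3 at 209 against 45.4 CPM and 298 against 44.4 CPM. These proteins fold replicated DNA into compact chromosomes. In fibroblast-like nuclei 13 of 13 chromatin and 11 of 12 condensin and cohesin genes were higher in dividing nuclei of both libraries, and in myeloid-like nuclei 12 of 13 and 12 of 12.

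The mitotic lists showed the widest gaps. Kinetochore and checkpoint genes stood at 3289 against 60.3 CPM in control fibroblast-like and 2524 against 78.5 CPM in control myeloid-like nuclei, and at 3037 against 65.2 CPM and 2559 against 83.1 CPM in Cxcl12-cKO. Cenpp, a centromere protein, was at 644 against 25.6 CPM and 786 against 28.6 CPM over all classes, and Cenpe, the kinesin that moves chromosomes to the spindle equator, at 313 against 2.85 CPM and 362 against 3.19 CPM. The kinesins Kif15, Kif23 and Kif20b were at 288, 326 and 221 CPM in the control and 420, 306 and 281 CPM in Cxcl12-cKO, with none above 3.67 CPM in other nuclei. The spindle genes Tpx2 (301 and 372 CPM), Prc1 (301 and 331 CPM) and Nusap1 (238 and 286 CPM), which nucleate and bundle microtubules, were at or below 2.55 CPM elsewhere. All 11 kinesins and all 16 spindle and kinase genes were higher in dividing nuclei of both classes and both libraries.

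Of the cytokinesis genes, Diaph3 was found in 41 of 43 and 86 of 93 dividing nuclei, at 1045 against 17.6 CPM and 1121 against 21.6 CPM. Anln, a scaffold of the contractile ring, was at 347 against 6.06 CPM and 377 against 7.46 CPM. Cit, a kinase of the midbody, was at 284 against 82.4 CPM and 337 against 63.1 CPM. The list that holds it stood at 194 and 217 CPM in lesional neuron-like nuclei, which should not divide, against 3.73 and 2.85 CPM for the rule genes. The regulators Fbxo5 (66.9 and 95.2 CPM), Cdc25b (71.0 and 70.4 CPM) and Cdk1 (54.3 and 80.7 CPM), the kinase that drives entry into mitosis, were each seen at the levels given in dividing nuclei of the control and of Cxcl12-cKO. Cdk1 was at 0.408 and 0.765 CPM in other nuclei.

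**Figure D3:**
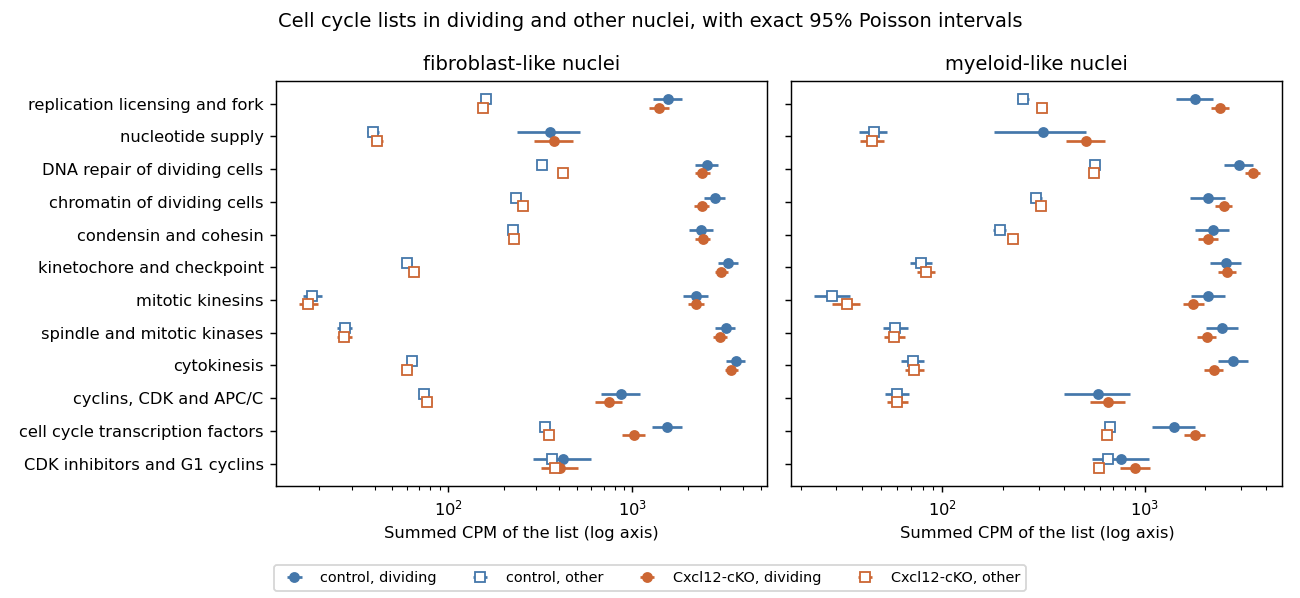
Summed level (x axis, CPM on a log scale) of each cell cycle gene list (y axis) in dividing and in other nuclei of the fibroblast-like and myeloid-like classes, for each library, with exact 95% intervals of counting error. The kinesin list spans from 18.4 to 2201 CPM in control fibroblast-like nuclei, whereas CDK inhibitors and G1 cyclins lie at 367 and 422 CPM.

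All 12 transcription factors of the cycle were higher in dividing nuclei of each library over all classes, with median log2 ratios over the list of 3.29 and 3.42. Their summed levels differed less, and Rb1 and E2f3 were also present in other nuclei. Rb1, the retinoblastoma protein that restrains E2F, was at 364 against 175 CPM and 265 against 185 CPM, E2f3 at 159 against 108 CPM and 190 against 134 CPM, and Rbl1, a relative of Rb1, at 150 against 14.0 CPM and 147 against 14.5 CPM. The list of CDK inhibitors and G1 cyclins was at 422 against 367 CPM and 404 against 380 CPM in fibroblast-like nuclei and at 769 against 659 CPM and 899 against 595 CPM in myeloid-like nuclei. Only 1 of its 12 members in fibroblast-like and 2 in myeloid-like nuclei were higher in dividing nuclei of both libraries. Cdk6, a G1 kinase, was at 532 against 254 CPM and 635 against 310 CPM in myeloid-like nuclei, and Cdkn2c, an inhibitor of Cdk4 and Cdk6, at 41.8 against 1.72 CPM and 49.7 against 1.63 CPM over all classes. Ccnd3, cyclin D3 of G1, ran the other way, at 39.4 against 310 CPM and 25.1 against 198 CPM in myeloid-like nuclei. In the dividing ones it rested on 2 and 4 UMIs.

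Within dividing nuclei, mitotic genes outweighed S phase genes almost without exception. The 49 mitotic genes had more UMIs than the 32 S phase genes in 42 of 43 control and 89 of 93 Cxcl12-cKO dividing nuclei. The medians were 42 mitotic and 5 S phase UMIs per nucleus in the control, and 38 and 8 in Cxcl12-cKO. The rule itself used late genes, so nuclei in S phase with few mitotic transcripts were not sought. For 100 mitotic UMIs there were 15.6 and 15.2 S phase UMIs in fibroblast-like dividing nuclei, 21.4 and 33.8 in myeloid-like ones and 12.4 and 14.5 in OPC-like ones. The 3 Cxcl12-cKO nuclei with more S phase than mitotic UMIs were myeloid-like, and the control one was fibroblast-like.

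**Figure D4:**
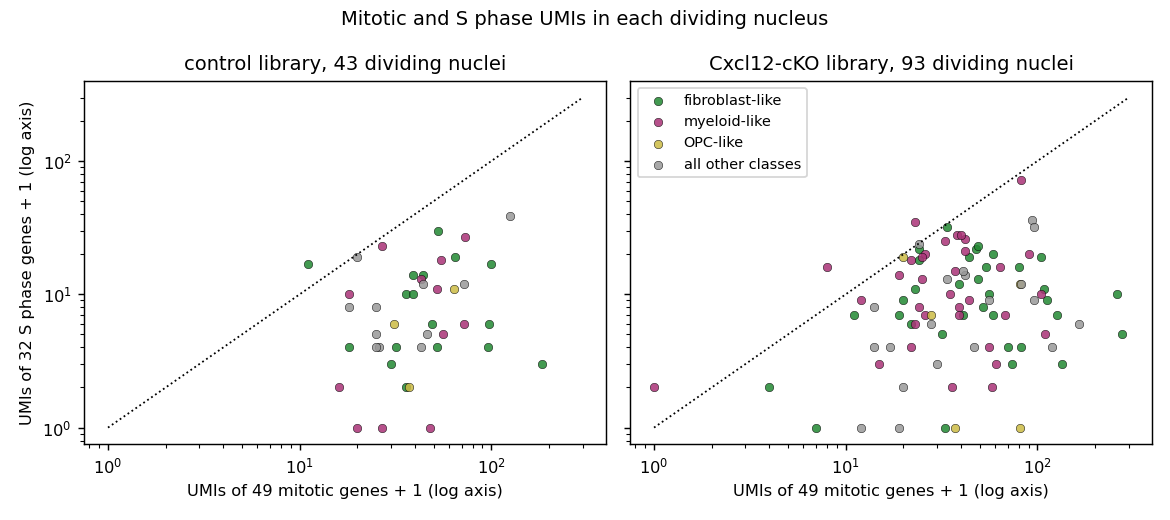
UMIs plus 1 of 49 mitotic genes (x axis) and of 32 S phase genes (y axis), both on log axes, in each dividing nucleus (point, coloured by class), with equal values on the dotted line, for the control and Cxcl12-cKO libraries. Mitotic UMIs exceed S phase UMIs in 42 of 43 and 89 of 93 nuclei.

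The levels of the cycle lists in dividing nuclei were set side by side between the libraries, and the differences between classes were not tested. Over all classes the log2 ratio of Cxcl12-cKO over control ran from 0.01 to 0.40 over the 12 lists. It was 0.40 for licensing and fork genes (0.21 to 0.59), 0.32 for repair (0.17 to 0.47) and 0.19 for kinetochore genes (0.04 to 0.33), and the interval included 0 for cyclins (0.24, −0.05 to 0.52) and transcription factors (0.01, −0.19 to 0.21). The control dividing nuclei of 21172 and 22521 UMIs held 42 and 24 of the control's 2045 mitotic UMIs. They held 3 and 4 of its 381 S phase UMIs. Both nuclei are in the total that scales the control CPM over all classes, and their part in these ratios was not tested. Within fibroblast-like dividing nuclei the licensing list was at −0.16 (−0.47 to 0.17), repair at −0.08 (−0.33 to 0.16), and transcription factors at −0.61 (−0.95 to −0.27), the only list of the 12 whose interval excluded 0 there. Within myeloid-like dividing nuclei licensing was at 0.41 (0.08 to 0.76) and cytokinesis at −0.32 (−0.61 to −0.03). These intervals leave out the spread between nuclei, of which there were 12 and 34. In Cxcl12-cKO 71 of their 458 S phase UMIs came from 1 nucleus. Among myeloid-like dividing nuclei, chosen after their values were seen, Kif23 was at 572 CPM in the control and 233 CPM in Cxcl12-cKO (−1.30, −2.04 to −0.54), and Atad2 at 237 and 578 CPM (1.29, 0.42 to 2.29).

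Fibroblast states were compared by lists of marker genes. Dividing fibroblast-like nuclei had more of the myofibroblast list than other fibroblast-like nuclei, 1242 against 783 CPM in the control (log2 ratio 0.66, 0.36 to 0.95) and 1354 against 653 CPM in Cxcl12-cKO (1.05, 0.87 to 1.23). The list was seen in 16 of 17 and 25 of 34 dividing nuclei, but 25 of 97 and 65 of 255 UMIs came from 1 nucleus in each library. Without that nucleus the ratio was 0.31 (−0.04 to 0.65) in the control and 0.77 in Cxcl12-cKO. Only 1 of its 6 genes, Col12a1, was higher in both libraries, with 69 of the 97 and 222 of the 255 UMIs. Col12a1, a collagen that decorates fibrils, was at 883 against 520 CPM and 1179 against 485 CPM, and Postn, a matrix protein of healing wounds, at 256 against 80.9 CPM in the control and 63.7 against 68.3 CPM in Cxcl12-cKO. Tnc, a matrix glycoprotein, was lower in the control, at 64.0 against 160 CPM (−1.32, −2.94 to −0.10), and at 85.0 against 84.6 CPM in Cxcl12-cKO. Acta2, the smooth muscle actin that defines myofibroblasts, had 0 and 1 UMI in dividing nuclei, and Lrrc15 none. The late inner lesion list was at 1344 against 1126 CPM (0.26, −0.04 to 0.53) and 1492 against 1000 CPM (0.58, 0.40 to 0.75). Within it Sema3c, a secreted guidance cue, was at 320 against 93.8 CPM and 345 against 109 CPM, and Col11a1, a minor fibrillar collagen, at 678 against 643 CPM and 674 against 482 CPM.

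The leptomeningeal list, of fibroblasts that line the brain surface, was at 883 against 1041 CPM in the control (−0.24, −0.60 to 0.10) and 340 against 1087 CPM in Cxcl12-cKO (−1.68, −2.05 to −1.32). The libraries' dividing nuclei differed by −1.38 (−1.89 to −0.87), but Lama1, a basement membrane laminin, gave 31 control UMIs in 2 nuclei and none in Cxcl12-cKO. Tbx18, a transcription factor of mural and meningeal cells, was close, at 243 against 260 CPM and 239 against 255 CPM. Ranbp3l, chosen after its values were seen, was at 141 against 491 CPM and 90.3 against 526 CPM. The dural and border list was lower in dividing nuclei, at 64.0 against 205 CPM and 85.0 against 163 CPM. The list of lymphocyte-interactive fibroblasts was at 192 against 208 CPM (−0.12) and 457 against 352 CPM (0.38), the latter falling to 0.07 without the nucleus with the most of its UMIs. Growth factor receptors as a list were near equal, at 2726 against 2845 CPM and 2841 against 2770 CPM. Of these Egfr was at 1037 against 1395 CPM and 1492 against 1335 CPM, and Igf1r, the receptor of insulin-like growth factor, at 461 against 266 CPM and 340 against 251 CPM.

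**Figure D5:**
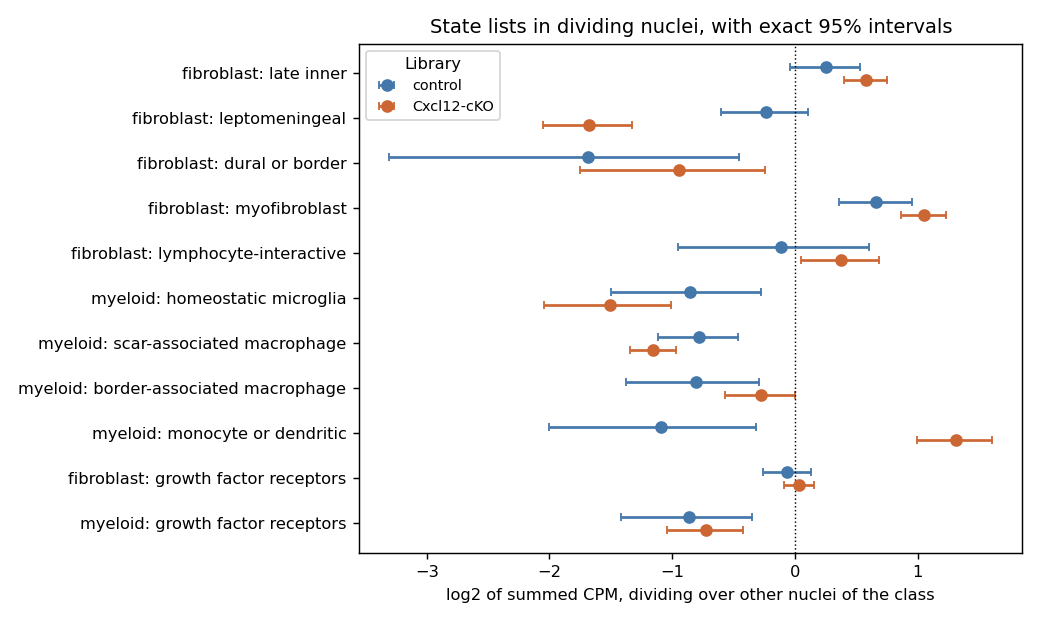
Log2 ratio of dividing over other nuclei (x axis) for each list of fibroblast or myeloid states and for growth factor receptors (y axis), for each library, with exact 95% intervals of counting error. The myofibroblast list lies above 0 in both libraries (0.66 and 1.05), and the homeostatic microglia (−0.85 and −1.50) and scar-associated macrophage lists (−0.78 and −1.15) below it. Only 1 of the 6 myofibroblast genes was higher in both libraries. Without the nucleus with the most UMIs of that list, the control interval included 0.

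Myeloid states were lower in dividing than in other myeloid-like nuclei for 3 of 4 lists. Homeostatic microglia genes were at 473 against 855 CPM in the control (−0.85, −1.50 to −0.28) and 207 against 589 CPM in Cxcl12-cKO (−1.50, −2.05 to −1.01). Of these Cx3cr1, the fractalkine receptor, was at 256 against 385 CPM and 81.7 against 239 CPM, and P2ry12, the ADP receptor of resting microglia, at 158 against 264 CPM and 81.7 against 201 CPM. Scar-associated macrophage genes were at 1578 against 2713 CPM (−0.78) and 1471 against 3275 CPM (−1.15). Gpnmb, a glycoprotein of lipid-laden macrophages, was at 592 against 1609 CPM and 1000 against 2265 CPM. The list was still seen in 12 of 12 and 31 of 34 dividing nuclei, and homeostatic genes in 5 of 12 and 15 of 34. Border-associated macrophage genes were at 592 against 1037 CPM (−0.81) and 685 against 831 CPM (−0.28). Among them Mrc1, the mannose receptor, was at 296 against 314 CPM and 258 against 239 CPM, and Stab1, a scavenger receptor, at 276 against 450 CPM and 409 against 411 CPM. The panel of myeloid markers was itself lower in these nuclei (2721 against 4872 CPM and 2905 against 4434 CPM), and its part in these list values was not tested.

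The monocyte and dendritic list went opposite ways, at 256 against 547 CPM (−1.09) and 610 against 246 CPM (1.31, 0.99 to 1.61). In Cxcl12-cKO, 55 of 97 list UMIs came from 1 nucleus, and without it the ratio was 0.14 (−0.34 to 0.59). Cd74, the invariant chain of MHC class II, had 59 UMIs in 4 nuclei. In the control 12 of 13 UMIs also came from 1 nucleus. Growth factor receptors were lower in dividing myeloid-like nuclei, at 611 against 1109 CPM (−0.86) and 553 against 914 CPM (−0.72). St18, a gene of oligodendrocytes that was chosen after its values were seen, had 54 UMIs in 9 of 12 and 109 UMIs in 22 of 34 dividing myeloid-like nuclei (1065 against 291 CPM and 685 against 405 CPM). The myelin genes Mog, Mag, Mobp, Ermn and Opalin had no UMI in them.

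OPC-like dividing nuclei had 8697 CPM of Lhfpl3 against 5821 CPM in other OPC-like nuclei of the control and 11697 against 8238 CPM in Cxcl12-cKO. Pcdh15, a protocadherin of OPCs, was at 3014 against 1356 CPM and 3312 against 1210 CPM, and Tnr, a tenascin of OPCs and perineuronal nets, at 2928 against 6993 CPM and 5762 against 7763 CPM. Pdgfra, the receptor through which OPCs receive their main mitogen, was at 517 against 145 CPM on 6 UMIs, and at 794 against 161 CPM on 23 UMIs in 4 of 5 nuclei. The oligodendrocyte panel was low in them, at 86.1 against 1837 CPM and 34.5 against 1731 CPM. Neural progenitor genes had 1 and 6 UMIs in these nuclei, too few to read.

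Across all genes, fibroblast-like dividing and other nuclei could be compared for 12828 genes. A gene was called when it differed at least 2-fold in the same direction in both libraries with both intervals excluding 0. With that call 349 genes (2.72%) were higher and 130 genes (1.01%) lower in dividing nuclei. Of 80 cycle genes outside the rule that could be called, 61 were higher and 1, Ccnd3, lower (64.0 against 161 CPM and 37.2 against 150 CPM), with a median log2 ratio of 3.34 against 0.30 over all genes. The rule used this contrast, so nothing is read from those counts. The other 288 higher genes were in no list. The highest ratios were Diaph3 (1677 against 7.34 CPM and 1524 against 6.99 CPM), Anln (576 against 2.20 CPM and 478 against 2.10 CPM), Prc1 (410 against 2.26 CPM and 382 against 1.98 CPM), Kif23, Kif15, Cenpe, Bub1b (269 against 2.20 CPM and 212 against 1.73 CPM) and Lockd. Lockd, a non-coding RNA downstream of Cdkn1b, was the highest outside the lists, at 563 against 3.85 CPM and 489 against 2.78 CPM.

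The genes that were lower in dividing fibroblast-like nuclei included transporters. Slc7a11, the cystine transporter, was at 51.2 against 211 CPM and 10.6 against 210 CPM, on 4 and 2 UMIs in dividing nuclei. Slc47a2, an exporter of organic cations, was at 12.8 against 186 CPM and 15.9 against 146 CPM, on 1 and 3 UMIs. Prkag2, a subunit of the energy sensor AMPK, was at 38.4 against 365 CPM and 37.2 against 295 CPM, on 3 and 7 UMIs. The dividing levels of these genes are thus near the floor. Afap1l1, Zfp536, Ppm1e and Slc26a2 were also among the lowest 8. Myeloid-like nuclei could be compared for 8090 genes, with 146 higher (1.8%) and 52 lower (0.643%), and 24 of 36 cycle genes higher and 1, also Ccnd3, lower. Of the higher genes 122 were in no list. The highest included Diaph3 (1223 against 32.8 CPM and 843 against 29.8 CPM), Brip1, Cenpp, Smc2, Cit, Efcab11 (355 against 9.93 CPM and 358 against 11.3 CPM) and D17H6S56E-5. The lowest were Tbc1d16, Wwc2, Slc1a3, a glutamate transporter, F13a1, a clotting factor of macrophages, Ccnd3, Fbxo32, Ifitm10 and Mgll, the lipase of monoacylglycerols (19.7 against 190 CPM and 18.9 against 185 CPM, on 1 and 3 UMIs in dividing nuclei). Of the 7830 genes open in both classes, 74 were higher in both, 34.6% of the 214 fibroblast calls and 53.2% of the 139 myeloid calls. The same rule genes chose the dividing nuclei of both classes, so nothing is read from this overlap.

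Between the libraries, dividing nuclei could be compared for 3562 genes with at least 50 UMIs in them. In Cxcl12-cKO 96 genes (2.7%) were at least 2-fold higher and 174 (4.88%) lower, with intervals that excluded 0. The same direction was found in both mouse pairs for 73 of 96 and 55 of 174. Of 95 cycle genes tested 4 were higher, none lower, at a median log2 ratio of 0.25 against 0.09 over all genes. They included Fanca (11 and 51 UMIs, log2 1.20), Ect2, which starts the contractile ring (30 and 132, 1.12, 0.54 to 1.75), and Brca2 (11 and 46, 1.05). The share of cycle genes called higher, 4 of 95, was not far from the 2.7% of all genes, and with the lineages weighted alike none was called.

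Of the genes with the highest ratios, several were spread over many nuclei. Ddx31, an RNA helicase, had 3 UMIs in 2 control and 49 UMIs in 32 Cxcl12-cKO dividing nuclei (log2 3.02, 1.38 to 5.34), and Anxa1, an annexin that dampens inflammation, 7 and 58 UMIs (2.04, 0.90 to 3.41). Pde3a, a phosphodiesterase, had 15 and 126 UMIs (2.06, 1.28 to 2.94), 111 of the latter in fibroblast-like nuclei. Ltbp2, a matrix protein, had 9 and 77 UMIs (2.08, 1.08 to 3.27), 76 of the latter in fibroblast-like nuclei. In Cxcl12-cKO, 22 UMIs of Pde3a and 25 of Ltbp2 came from 1 nucleus each. In lesional nuclei that were not dividing, the log2 ratio was 0.25 for Pde3a and 1.09 for Ltbp2. Gpr137c had 6 and 52 UMIs (2.10, 0.88 to 3.61). Nkain3 had 4 and 67 UMIs (3.05, 1.63 to 4.97), with 16 in 1 nucleus. Cdc20b had none in the control and 50 in Cxcl12-cKO, 49 of them in 1 nucleus, so that it was at least 3.04 higher on the log2 scale when 3 control UMIs are set as the floor. Without that nucleus the value was −1.04, and without nuclei of both sexes −1.41, both set by the floor, so no direction is read for Cdc20b.

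The lowest ratios rested on few control nuclei. Hs3st4 had 77 and 3 UMIs (−5.70, −8.00 to −4.09), 60 of the control's in 1 nucleus, Spock1 52 and 5 (−4.39, 27 in 1), Gpr158 58 and 6 (−4.29, 33 in 1) and Fstl4 53 and 6 (−4.16, 37 in 1). Hs6st3 had 99 and 15 UMIs (−3.74, 84 in 1 nucleus), Mgat4c 91 and 14 (−3.71, 84 in 1), Cntn5 127 and 20 (−3.68, 105 in 1) and Dpp10 660 and 111 (−3.59, 338 in 1). With the lineages weighted alike Dpp10 was at 0.64 and Cntn5 at 0.36, and in the male pair of mice they were at 0.24 and 0.50, so their direction turned, as did that of Gpr158 in the male pair (0.28, on 1 and 2 UMIs). Dpp10, Cntn5 and Gpr158 are known from neurons. The control held the neuron-like dividing nucleus of 21172 UMIs, 145 of them of the neuron panel. It also held a mixed dividing nucleus of 22521 UMIs, 124 of them of that panel. The part of these nuclei in the ratios was not tested. Without the nucleus with the most UMIs of each gene, 83 genes were lower, 79 of them among the 174.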

How the data were processed

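Nuclei of PT lesions and surrounding parenchyma were profiled by single-nucleus RNA sequencing with 10x 3′ v3.1 chemistry and sample tags. The values are counts: the authors deposited UMI counts per gene and nucleus, 1 matrix per genotype and region, made per the submitters' processing notes with Cell Ranger 9.0.0 on GRCm39.

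From these counts, the minimum of 757 gene UMIs was the 2.5th percentile over all barcodes. A class was the panel of 8 markers with the most UMIs among those of the 12 panels that held at least 3 UMIs from at least 2 genes. A nucleus was mixed when a second panel also met this with at least 0.5 of the first panel's UMIs. No doublet caller was run: nuclei of both sexes and mixed nuclei were left out as alternatives instead. CPM is summed UMIs scaled to 1000000 gene UMIs of the same nuclei. Log2 ratios have exact conditional 95% intervals, shares have Clopper-Pearson intervals, and a count of 0 was set at a floor of 3. Calls needed at least 50 UMIs, a 2-fold ratio and an interval excluding 0. The call was run on simulated sums with known changes and counting error only. That check does not cover UMIs clustered in few nuclei.

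No test was made, since there is 1 library per genotype and the dividing nuclei were chosen by measured values. The members and lists were chosen with earlier results of these data known. Named genes were the 3 members of each cycle list and the 2 of each state list with the most UMIs, and the 8 highest and 8 lowest ratios of each contrast across genes, with others marked as chosen after their values were seen. Some genes that meet this rule are not reported here. Each result was recomputed under other settings, 30 listed at the outset and 9 chosen after seeing the data, among them those without the top nucleus. Promoters came from RefSeq (GRCm38.p6), matched by symbol for 134 of 165 cycle genes. Scripts used Python 3.11.15, with scipy 1.17.1 for intervals, numpy 2.4.6 and pandas 2.3.3 for tables, and matplotlib 3.10.9.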

Additional observations from a re-analysis of the deposited data

Results flagged for a closer look

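For 4 results the female and the male pair of mice moved in opposite directions between the libraries. The log2 ratio of Cxcl12-cKO over control of the dividing share among OPC-like nuclei was −1.58 in nuclei of the female mice (2 of 48 and 1 of 72) and 2.08 in those of the male mice (1 of 55 and 3 of 39). In dividing nuclei Dpp10 was at −2.21 in the female and 0.24 in the male pair, Cntn5 at −1.33 and 0.50 and Gpr158 at −3.98 and 0.28. Nkain3 had a value just under 0 in the female pair (−0.0040), on 2 and 7 UMIs that give no direction, and was at least 3.25 higher in the male pair, where the control had 0 and Cxcl12-cKO 47 UMIs and the floor of 3 stands in for the 0. Each pair is 1 mouse against 1 mouse, and the difference between the pairs was not tested.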

How the results depend on the processing

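No paired analysis was possible because the labels carry no replicate numbers and there is 1 library per genotype. The log2 ratio of the dividing share over all lesional nuclei was above 0 in every alternative, from 0.17 with the mitotic lists in place of the 6 genes and 0.48 in the male mice to 1.48 in the female mice. It ranged from 0.42 to 1.55 in fibroblast-like, 0.28 to 1.83 in myeloid-like and −1.58 to 2.08 in OPC-like nuclei. The share of dividing nuclei called fibroblast-like in the control was 20.9% when each panel's share of UMIs was read relative to its share over all lesional nuclei, and the myeloid-like share was 6.98% (control) and 6.45% (Cxcl12-cKO) when single markers replaced the panels. Genes higher in Cxcl12-cKO dividing nuclei numbered 21 with a minimum of 100 UMIs, 271 with none and 58 with lineages weighted alike (24 shared). Genes lower numbered 87, 589 and 38 (8 shared), 39 without nuclei of both sexes (25 shared) and 83 without the top nucleus of each gene. Cycle genes called in this contrast were 0 to 5 higher and 0 or 1 lower. Without the top nucleus, genes that differed between dividing and other nuclei numbered 188 higher and 242 lower in fibroblast-like nuclei, and 57 higher and 117 lower in myeloid-like nuclei. Signs reversed for Cdc20b (−1.41 without nuclei of both sexes, −1.04 without the top nucleus) and, with lineages weighted alike, for Dpp10 (0.64) and Cntn5 (0.36). For the changes that do not follow from testing other genes or leaving out nuclei, the cause was not tested. With 43 and 93 dividing nuclei of 1 library each, counting error alone spans about the intervals given, and mouse-to-mouse spread was not measured.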
